A study of Mus musculus with 10 samples.

Results

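The genes described here are 40 genes of the cell cycle, taken from a fixed list of 16 genes of DNA replication and 24 genes of mitosis, out of 30935 genes in the count table. They were followed in mouse cerebral cortex at postnatal day 8. RNA-seq was done on 5 libraries from homozygous mutants that lack HAR.505, a human accelerated region inside the Rbfox1 locus, and on 5 libraries from wild-type mice with both copies of the element. Both groups were of the same age, and the submitters describe the samples of each genotype as independent. The labels name no treatment, no Cre driver, and neither strain nor sex. Total RNA came from cortex that was not sorted, so each value is an average over all of its cell types. The deleted animals are called knockout below. Libraries are listed in the order of replicates 2, 4, 5, 6 and 7 for wild type and 1, 3, 5, 6 and 8 for knockout.

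Cells that enter S phase switch on replication genes through E2F transcription factors, which are held back by the retinoblastoma family until cyclin-dependent kinases release them. Mitotic genes peak later and are driven through B-MYB, FOXM1 and the MuvB complex, which is recruited by a short promoter element called the cell cycle genes homology region (CHR), while NF-Y binds CCAAT boxes close by. Most cortical neurons have left the cell cycle before birth. In the early postnatal cortex the cells that still divide are mainly oligodendrocyte progenitors and astrocytes, with microglia, endothelial cells and progenitors near the ventricle.

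The promoters of replication and mitotic genes differed in the words they held, and 7 of them are printed to show those differences. Each sequence holds the 180 bases before the annotated start, 5′ to 3′ on the strand of the gene, from RefSeq's GRCm38.p6. Capitals mark a match on either strand. The E2F words searched were TTCCCGC and also TTGGCGC. For the CHR the words were TTTGAA and also TTCGAA, and for the NF-Y box it was CCAAT.
The replication genes shown are Mcm5 (chr8:75109329-75109508, plus strand) and Mcm6 (chr1:128359706-128359885, minus strand), subunits of the replicative helicase, and Rrm1 (chr7:102441515-102441694, plus strand), the large subunit of ribonucleotide reductase.
Mcm5: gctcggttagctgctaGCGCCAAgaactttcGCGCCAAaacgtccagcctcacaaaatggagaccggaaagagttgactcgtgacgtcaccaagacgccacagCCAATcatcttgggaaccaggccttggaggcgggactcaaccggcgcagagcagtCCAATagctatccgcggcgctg
Mcm6: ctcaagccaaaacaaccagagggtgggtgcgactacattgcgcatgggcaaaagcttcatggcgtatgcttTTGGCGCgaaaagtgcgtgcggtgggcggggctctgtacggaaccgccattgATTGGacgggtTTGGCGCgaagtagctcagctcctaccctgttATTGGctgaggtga
Rrm1: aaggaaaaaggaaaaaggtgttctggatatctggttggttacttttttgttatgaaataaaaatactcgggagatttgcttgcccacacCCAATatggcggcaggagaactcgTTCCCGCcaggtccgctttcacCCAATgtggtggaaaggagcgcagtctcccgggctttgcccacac
The mitotic genes shown are Mki67 (chr7:135716380-135716559, minus strand), which encodes the proliferation antigen Ki-67, Top2a (chr11:99024190-99024369, minus strand), which untangles sister chromatids, Cdk1 (chr10:69352913-69353092, minus strand), the mitotic kinase, and Cdc20 (chr4:118437344-118437523, minus strand), an activator of the anaphase-promoting complex.
Mki67: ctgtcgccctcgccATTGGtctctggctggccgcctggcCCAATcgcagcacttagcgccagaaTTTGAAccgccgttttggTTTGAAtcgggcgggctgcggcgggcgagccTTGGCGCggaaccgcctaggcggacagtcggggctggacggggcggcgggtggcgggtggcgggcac
Top2a: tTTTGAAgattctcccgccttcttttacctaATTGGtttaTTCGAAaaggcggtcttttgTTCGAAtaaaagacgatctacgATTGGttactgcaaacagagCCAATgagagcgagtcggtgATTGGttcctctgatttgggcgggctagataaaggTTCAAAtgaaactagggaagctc
Cdk1: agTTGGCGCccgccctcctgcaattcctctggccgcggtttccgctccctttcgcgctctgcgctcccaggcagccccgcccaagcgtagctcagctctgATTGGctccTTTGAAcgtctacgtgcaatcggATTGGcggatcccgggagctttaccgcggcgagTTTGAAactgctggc
Cdc20: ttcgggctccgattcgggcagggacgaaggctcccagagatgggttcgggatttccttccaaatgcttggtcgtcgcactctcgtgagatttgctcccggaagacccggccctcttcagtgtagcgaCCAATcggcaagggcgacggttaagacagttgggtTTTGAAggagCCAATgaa
In these windows each replication promoter held an E2F word and a CCAAT box and no CHR word. Each mitotic promoter held a CHR word and a CCAAT box, and Mki67 and Cdk1 also held an E2F word.

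Over the full promoter window, from 250 bases before to 50 bases after the start, 34 promoters were matched for 32 of the 40 genes. A CHR word was present in 16 of 20 mitotic promoters (80%) and in 2 of 14 replication promoters (14.3%), those of Mcm2 and Mcm7, against 14% of the 15599 promoters of tested genes and 19.2% of all 32851 promoters. The 4 mitotic promoters without one belonged to Nusap1, Cenpe, Birc5 and Ccnb1. An E2F word was present in 8 of 14 replication promoters (57.1%) and in 3 of 20 mitotic promoters (15%), against 11.1% of promoters of tested genes and 6.81% of all promoters. CCAAT was common in both classes, at 64.3% and 90%, against 37.2% and 37.4%. CCAAT and CHR occurred together in 80% of mitotic and 14.3% of replication promoters, against 5.69% and 7.52%. The E2F and CCAAT words shared letters in 2 promoters, those of Mcm7 and Ccnb1, and the CHR words overlapped neither of the others in any member promoter. Median GC content was 59.5% in replication and 59.7% in mitotic promoters, close to the 60.3% of tested genes. A separate list of 30 other replication genes and one of 45 other mitotic genes had E2F words in 55.2% and 17.5% of promoters and CHR words in 17.2% and 72.5%. They had CCAAT in 51.7% and 65%, and CCAAT with a CHR word in 6.90% and 57.5%, each below the share in the members. These are matches of letters in a fixed window and say nothing of whether a factor was bound.

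**Figure D1:**
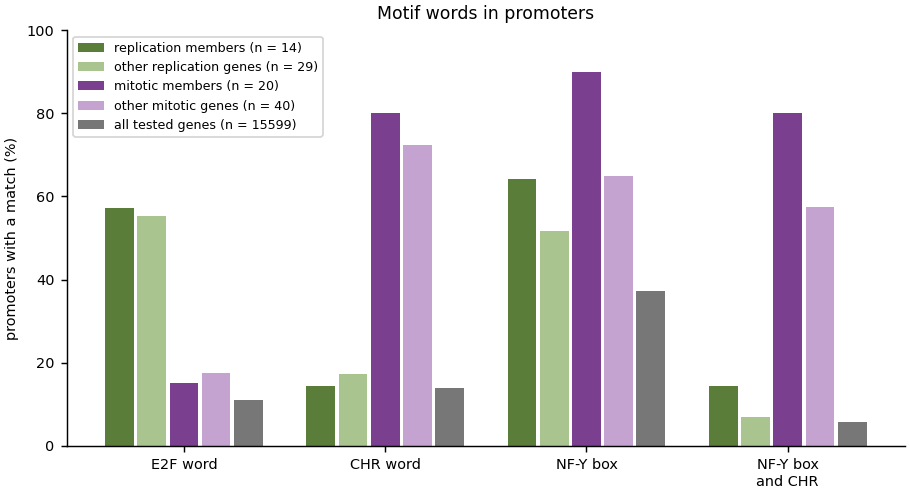
Bars give the percent of promoters with an E2F word, a CHR word, CCAAT (the NF-Y box), or CCAAT together with a CHR word, for replication and mitotic members, the lists of other replication and mitotic genes, and all tested genes. CHR words were in 80% of mitotic and 14.3% of replication promoters, and E2F words in 15% and 57.1%.

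Library totals ran from 16479594 to 22391943 counts. All 40 genes passed the filter on low counts. The lowest count of a member in any library was 14, and mean counts per library ran from 23.9 for Cdc6 to 880.8 for Pcna. Libraries of the same genotype differed beyond sampling noise. Neuronal transcripts of the labelled tissue were abundant: the 3 most abundant markers of cortical neurons, Syt1, Slc17a7 and Snap25, together with the rest of a list of 12, summed to between 3557 and 4073 CPM, a count scaled to a common library total, in the 10 libraries. Some libraries stood apart in genes of neighbouring tissue. Choroid plexus markers, led by Ttr, Sostdc1 and Kl, summed to 251 to 316 CPM in the wild-type libraries and to 231, 18.7, 20.4, 25.0 and 100 CPM in the knockout libraries, and striatal markers, Ppp1r1b and Penk among them, to 166 to 292 CPM and 135 to 181 CPM. Ttr had 0 counts in knockout replicate 3, which allows up to 0.166 CPM (3 counts). 59 of 15488 tested genes (0.381%) passed the genotype test at an adjusted p under 0.05 (edgeR quasi-likelihood test, Benjamini-Hochberg adjustment).

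Transcripts of the cell cycle were present at postnatal day 8 but were low beside most other tested genes. The 40 genes together took between 0.0327% and 0.0375% of all counts in a library. Per kilobase of exon, the median member stood at 1.92 CPM, against 7.12 CPM per kilobase for the median of 15118 tested genes with a known length. Of the 40 genes, 1 lay above that median, and the median member lay at percentile 23.9. No other age was measured, so how far these levels had declined from earlier stages cannot be read from the data. In whole tissue, fewer dividing cells and less RNA per dividing cell cannot be told apart.

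Among replication genes, levels per kilobase were highest for Pcna, the sliding clamp of DNA polymerase, at 31.5 CPM per kilobase, or percentile 85.8 of tested genes. The clamp also serves DNA repair. Rrm1 followed at 6.91 CPM per kilobase, and Rrm2, the S-phase subunit of the same reductase, stood at 4.32. The 6 subunits of the helicase, Mcm2 to Mcm7, which act in equal numbers in one ring, spanned 2.43 (Mcm5) to 6.33 CPM per kilobase (Mcm7), with Mcm4 at 3.58, Mcm6 at 3.14, Mcm2 at 2.90 and Mcm3 at 2.76. The transcription factor E2f1 reached 5.08 CPM per kilobase. The cyclins that drive entry into S phase, Ccne1 and Ccne2, stood at 4.69 and 2.44. Cdt1, which loads the helicase, and Tyms, which makes thymidylate, were lower, at 1.77 and 1.08 CPM per kilobase. Lowest of all 40 were Gins2, a subunit of the active helicase, at 0.435, and Cdc6, the loading partner of Cdt1, at 0.276.

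Mitotic genes lay in a lower and narrower band, from percentile 13.0 (Bub1) to 37.7 (Top2a). Their median was 1.48 CPM per kilobase, against 3.02 for the replication genes. Top2a led at 4.19 CPM per kilobase, followed by Cdc20 at 2.80, Cenpa, the centromeric histone, at 2.54, and Ccna2, cyclin A2, at 2.34. The spindle midzone protein Prc1 stood at 2.27, the spindle assembly factor Tpx2 at 2.17 and Mki67 at 2.01. Ube2c, the ubiquitin-conjugating enzyme of the anaphase-promoting complex, and the mitotic cyclins Ccnb1 and Ccnb2 all lay between 1.90 and 1.92 CPM per kilobase. Plk1 (1.63), Aurkb (1.40) and Aurka (1.39), kinases that order mitosis, lay close together. The transcription factor Foxm1 stood at 1.36. The kinesin Kif11, which pushes spindle poles apart, stood at 1.56, Nusap1, which bundles spindle microtubules, at 1.22 and Cdk1 at 1.18. Below them were the kinetochore proteins Cenpf (1.14) and Cenpe (0.990), the checkpoint kinase Bub1b (1.11), the passenger protein Birc5 (1.02), the cytokinesis kinesins Kif23 (0.979) and Kif20a (0.855), and Bub1 (0.801).

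**Figure D2:**
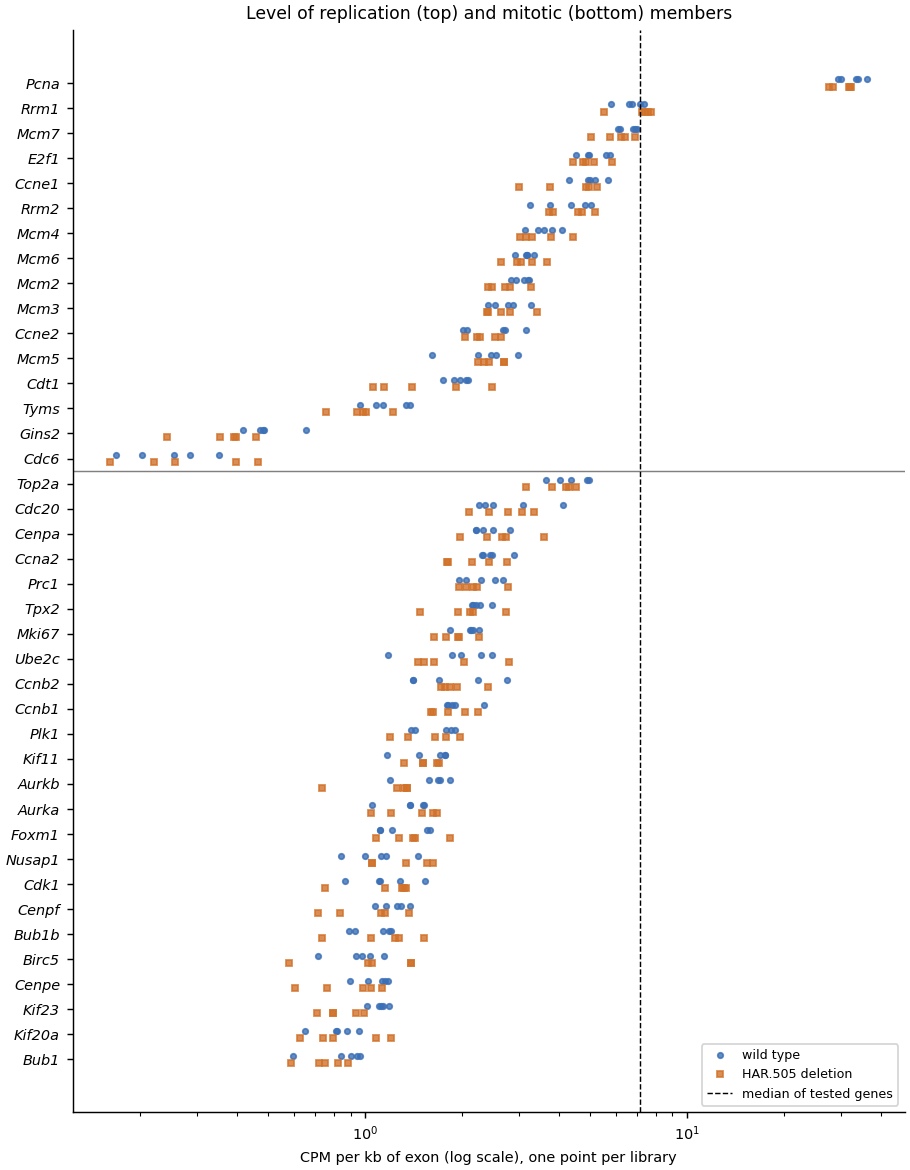
Level of each of the 40 genes in CPM per kilobase of exon on a log axis, with 1 point per library, blue for wild type and orange for the HAR.505 deletion, replication genes above and mitotic genes below the horizontal line, and the median tested gene as a dashed line. Pcna lies far above the other members at 31.5 CPM per kilobase, and Cdc6 lowest at 0.276.

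None of the 40 genes passed the test between knockout and wild-type cortex in edgeR. At an adjusted p under 0.05, 0 of 40 passed, where 0.381% of all tested genes did, and the smallest adjusted p of a member was 0.581, for Kif23. At an unadjusted p under 0.05 there were again 0 of 40, against 8.71% of all tested genes and 7.57% of the 9131 genes in the same range of CPM. DESeq2 and limma-voom called 0 members and put 1 and 2 members under an unadjusted p of 0.05. Fitted log2 differences of knockout minus wild type ran from -0.44 (Gins2) to 0.25 (Nusap1). The 95% interval lay within 1.5-fold in both directions for 31 of 40 genes, and within 2-fold for 39, the exception being Gins2. Smaller differences are not excluded by these intervals. The median standard error of a member was 0.161 on the log2 scale, against 0.0963 over all tested genes and 0.120 over those in the same range of CPM.

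The fitted differences leaned to lower values in the knockout, by small amounts. The fitted value was below 0 for 28 of 40 genes (70.0%), 12 of 16 replication and 16 of 24 mitotic genes, against 50.9% of all tested genes. Median log2 differences were -0.073 for replication and -0.060 for mitotic genes, against -0.0021 over all tested genes. Without knockout replicates 3, 5 and 6, the libraries lowest in choroid plexus markers, the medians were -0.053 and -0.072. The count below 0 was 21 of 40 with the striatal markers as a covariate, 23 with the choroid plexus markers, 24 with the neurogenic markers and 23 without knockout replicate 1. With the striatal covariate the replication median was -0.0096. On mean log2 CPM, the striatal and the choroid plexus markers were each lower in every knockout library than in every wild-type library. Fits with either covariate therefore cannot tell those markers and genotype apart. The part of neighbouring tissue in the lean was not tested further. Members share libraries, so their common sign does not amount to 40 separate observations.

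**Figure D3:**
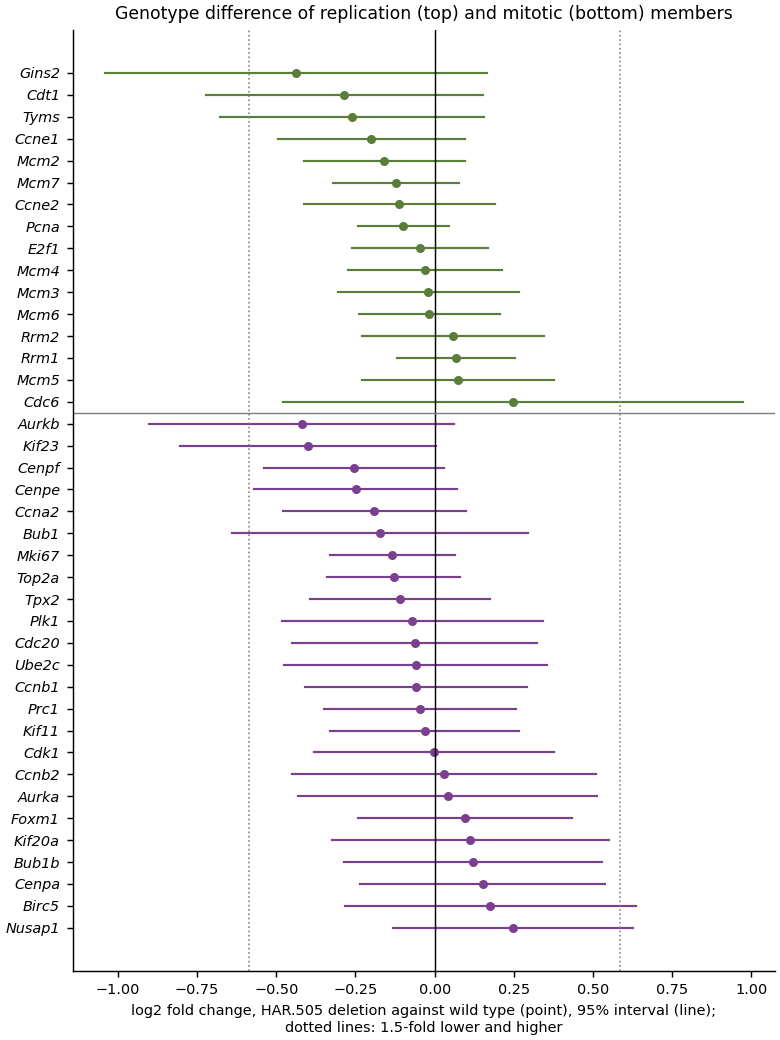
Fitted log2 difference of knockout minus wild type for each of the 40 genes, as a point with its 95% interval as a line, replication genes in green above and mitotic genes in purple below, and dotted lines at 1.5-fold lower and higher. Values run from -0.44 (Gins2) to 0.25 (Nusap1), and 28 of 40 points lie below 0.

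Replication genes with the most counts bounded the difference most closely. Pcna read 45.6, 54.9, 50.7, 44.7 and 51.7 CPM in the wild-type and 43.0, 49.1, 41.8, 48.7 and 48.4 CPM in the knockout libraries. The groups overlapped, with the highest value in wild-type replicate 4. Means were 49.5 ± 4.32 and 46.2 ± 3.51 CPM (SD, n = 5 each), a log2 difference of -0.10 with a standard error of 0.0702, and the interval ran from 0.846-fold to 1.03-fold. Rrm1 read 28.6, 27.0, 23.3, 26.4 and 29.5 CPM in the wild-type and 28.9, 30.1, 29.5, 22.0 and 30.8 CPM in the knockout libraries. Apart from replicate 6, the knockout libraries were within the upper part of the wild-type range or just above it, and the interval ran from 0.921-fold to 1.19-fold. Mcm7 gave 19.6 ± 1.24 CPM in the wild-type and 18.0 ± 2.11 CPM in the knockout libraries (SD, n = 5 each). E2f1 gave 16.3 ± 1.61 and 15.8 ± 1.71 CPM.

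Of the 6 helicase subunits, 5 had a fitted value below 0 and 0 passed the test. Mcm2 read 10.9, 10.5, 9.55, 9.94 and 10.8 CPM in the wild-type and 8.14, 8.34, 9.18, 11.0 and 9.51 CPM in the knockout libraries. Knockout replicate 6 was the highest of all 10 libraries and the other 4 knockout libraries lay below every wild-type library. Its log2 difference was -0.16 with a standard error of 0.124, and its adjusted p was 0.808 in edgeR. Mcm5 read 8.50, 8.81, 10.3, 5.58 and 7.73 CPM in the wild-type and 8.38, 8.12, 9.36, 7.74 and 9.34 CPM in the knockout libraries, a wild-type range that enclosed every knockout value. Mcm6 read 14.6, 14.0, 12.8, 13.8 and 13.9 CPM in the wild-type and 11.6, 13.3, 16.1, 12.9 and 14.4 CPM in the knockout libraries, so that here the knockout range enclosed every wild-type value. Fitted log2 differences were 0.07 for Mcm5, -0.02 for Mcm6, -0.02 for Mcm3 and -0.03 for Mcm4.

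Cdc6 and Gins2, the members with the fewest counts, act in origin licensing and origin firing. Gins2 read 1.63, 1.88, 2.55, 1.89 and 1.83 CPM in the wild-type and 1.38, 1.55, 1.53, 0.947 and 1.79 CPM in the knockout libraries. Only knockout replicate 8 lay inside the wild-type range, and replicate 6 was lowest. Its log2 difference of -0.44 had a standard error of 0.295 and an adjusted p of 0.744 in edgeR. Cdc6 spanned 0.717-fold to 1.96-fold in its interval, the widest of the 40. Cdt1 gave 4.27 ± 0.303 CPM in the wild-type and 3.50 ± 1.29 CPM in the knockout libraries (SD, n = 5 each), where the knockout libraries ran from 2.32 to 5.40 CPM and wild type from 3.82 to 4.58. Tyms differed by -0.26, Ccne1 by -0.20, Ccne2 by -0.11 and Rrm2 by 0.06 on the log2 scale, with standard errors between 0.140 and 0.204.

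Of the mitotic genes, the most widely used markers of dividing cells overlapped between genotypes. Mki67 read 18.5, 22.7, 21.3, 21.7 and 21.4 CPM in the wild-type and 17.9, 16.5, 19.6, 19.6 and 22.7 CPM in the knockout libraries. Knockout replicates 1 and 3 lay below every wild-type library and knockout replicate 8 matched the highest. Means were 21.1 ± 1.56 and 19.3 ± 2.34 CPM (SD, n = 5 each), with an interval from 0.794-fold to 1.04-fold and an adjusted p of 0.777 in edgeR. Top2a read 19.0, 21.0, 22.8, 25.5 and 25.8 CPM in the wild-type and 19.9, 16.5, 23.6, 22.0 and 22.5 CPM in the knockout libraries. Knockout replicate 3 was again the lowest library, and the interval ran from 0.790-fold to 1.06-fold. Cdk1 gave 5.26 ± 1.10 CPM in the wild-type and 5.24 ± 1.11 CPM in the knockout libraries, with an interval from 0.768-fold to 1.30-fold.

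Kif23 was the single member whose genotypes did not overlap, 2.50% of the 40 against 1.83% of all tested genes. It encodes a motor of centralspindlin, the complex that organises the midzone for cytokinesis. It read 4.04, 3.44, 3.76, 3.87 and 3.82 CPM in the wild-type and 2.69, 2.71, 3.37, 3.18 and 2.41 CPM in the knockout libraries, so the highest knockout library lay just under the lowest wild-type library. Means were 3.78 ± 0.221 and 2.87 ± 0.392 CPM (SD, n = 5 each). The edgeR difference of -0.40 with a standard error of 0.198 had an adjusted p of 0.581. The exact two-sided permutation test gave an unadjusted 0.00794, which the lack of overlap fixes as the smallest p that 5 against 5 libraries allow. In the same exact test Gins2 had 0.0159 and Aurkb 0.0397, also unadjusted. These are 3 of 40 members under 0.05, where 8.29% of all tested genes were. Its spread within genotype was 0.582 times that of counting alone, the lowest of the 40. Aurkb, the kinase of the chromosomal passenger complex, read 3.10, 3.33, 3.30, 3.60 and 2.34 CPM in the wild-type and 2.57, 1.44, 2.63, 2.45 and 2.63 CPM in the knockout libraries. Its groups overlapped through wild-type replicate 7, and its log2 difference was -0.42 with a standard error of 0.235.

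The kinetochore genes Cenpf and Cenpe were low in some knockout libraries and not in others. Cenpf read 13.0, 11.97, 14.0, 15.4 and 14.3 CPM in the wild-type and 12.8, 7.95, 15.2, 9.30 and 12.5 CPM in the knockout libraries. Knockout replicates 3 and 6 were low while replicate 5 lay near the top. Cenpe read 8.92, 7.09, 9.32, 9.13 and 8.09 CPM in the wild-type and 4.79, 6.02, 8.26, 7.80 and 8.89 CPM in the knockout libraries, and here replicates 1 and 3 were low. Both had a log2 difference of -0.25, with standard errors of 0.139 and 0.156. Nusap1 had the highest fitted difference among mitotic genes, 0.25 with a standard error of 0.185, and read 4.04, 5.91, 4.69, 4.54 and 3.41 CPM in the wild-type and 4.25, 4.25, 6.30, 6.57 and 5.43 CPM in the knockout libraries. The remaining 16 mitotic genes had log2 differences between -0.19 (Ccna2) and 0.18 (Birc5).

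As a multiple of counting noise, the variance between libraries of a genotype was slightly lower for these genes than for the median tested gene. Divided by what counting alone gives, the variance had a median of 3.29 over the 40 genes, against 4.31 over all tested genes and 3.77 over those in the same range of CPM. It was highest for Cenpf (7.60), Top2a (7.02), Ube2c (6.63) and Pcna (6.03). At a given relative spread this ratio grows with the count of a gene, so it does not measure relative spread. Pcna had the smallest standard error of the 40, 0.0702 on the log2 scale. The median standard error of a member, 0.161, was above the 0.0963 of all tested genes.

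Class totals were low in some knockout libraries and not in others. Replication genes summed to 202, 211, 207, 196 and 207 CPM in the wild-type and 196, 191, 195, 189 and 209 CPM in the knockout libraries. Mitotic genes summed to 159, 160, 164, 171 and 167 CPM in the wild-type and 142, 137, 168, 158 and 168 CPM in the knockout libraries. Knockout replicate 8 was within the wild-type range in both classes, and replicate 5 was just below it for replication and within it for mitosis. On the mean of log2 CPM, which weighs genes equally, 3 of 5 knockout libraries lay below every wild-type library in each class, and for mitotic genes the other 2, replicates 5 and 8, lay above every wild-type library. Pcna contributed 49.5 CPM to the wild-type replication sum on average. No test was run on these sums because the members were chosen with earlier results known.

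**Figure D4:**
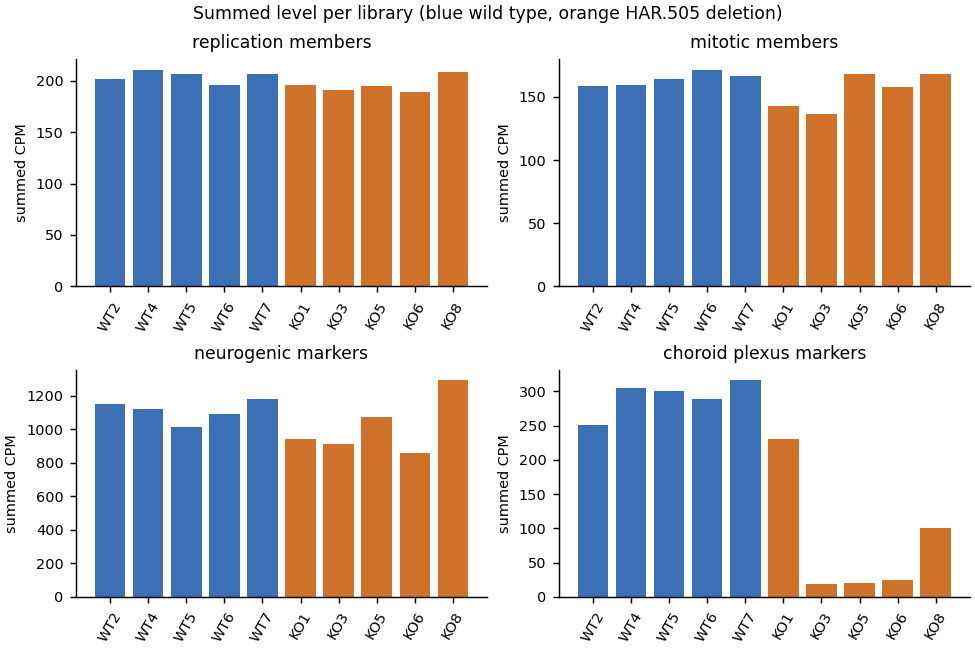
Bars give the summed CPM per library of the 16 replication genes, the 24 mitotic genes, the neurogenic markers and the choroid plexus markers, blue for wild type and orange for the HAR.505 deletion. Knockout libraries span 189 to 209 CPM for replication and 137 to 168 CPM for mitosis, and wild-type libraries 196 to 211 and 159 to 171 CPM.

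Among other genes of the same processes, none passed the edgeR test over all genes. Of 30 other replication genes, 0 passed and 2 had an unadjusted p under 0.05, both lower in knockout, where 4.52% of all tested genes were lower at that level. They were Lig1, the ligase that joins Okazaki fragments, with 16.7 ± 1.45 CPM in the wild-type and 13.4 ± 1.17 CPM in the knockout libraries (SD, n = 5 each) and an adjusted p of 0.265 in edgeR, and Cdca7, with a log2 difference of -0.50 and an adjusted p of 0.331. Of 45 other mitotic genes, 0 passed, and 6 had an unadjusted p under 0.05 and were lower. Of the 45, 34 lay below 0, where 50.9% of all tested genes did, and the median log2 difference was -0.13. The smallest p of that list was that of Racgap1, the partner of Kif23 in centralspindlin. It read 18.8, 18.0, 18.7, 18.7 and 19.8 CPM in the wild-type and 12.8, 14.6, 15.0, 13.1 and 16.3 CPM in the knockout libraries, with no overlap, as for 1.83% of all tested genes. Its log2 difference was -0.39 with a standard error of 0.0981, and its adjusted p of 0.0840 missed the threshold. Kif22, a chromosome-arm kinesin, was next, at -0.46 with an adjusted p of 0.409. Of 30 tested G1 regulators and inhibitors, 0 passed, 14 lay below 0 and 16 above. The smallest p-values there were those of E2f4, a repressor E2F (25.2 ± 1.89 and 20.9 ± 2.45 CPM, adjusted p 0.306), and Cdkn1c, the inhibitor p57 (26.9 ± 2.76 and 23.1 ± 2.93 CPM, adjusted p 0.462).

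Markers of the cell types that could carry these transcripts were compared in the same libraries. Markers of oligodendrocyte progenitors, led by Tnr, Olig1 and Pdgfra, summed to 918 to 1010 CPM in the wild-type and 928 to 994 CPM in the knockout libraries, with 5 of 10 above 0 and a median log2 difference of -0.0051. Endothelial markers, led by Cldn5, Kdr and Flt1, summed to 244 to 271 CPM and 246 to 271 CPM. Astrocyte markers, led by Slc1a2, Slc1a3 and Aldoc, had a median of 0.11 and summed to 3466 to 3936 CPM and 3650 to 4276 CPM, and microglia markers, led by Csf1r and Cx3cr1, had a median of 0.10 with 10 of 10 above 0. Over all tested genes 50.9% lay below 0. Neurogenic progenitor and neuroblast markers, led by Dcx, Cd24a and Sox11, summed to 1011 to 1178 CPM in wild-type and 860 to 1291 CPM in the knockout libraries, with 3 of 5 knockout libraries below every wild-type library. Of that list 1 of 12 passed in edgeR: Sp9, a factor of interneuron and striatal precursors, fell by 0.54 on the log2 scale, with an adjusted p of 0.0386. Of the striatal list Penk and Six3 passed and were lower in knockout, and of the choroid plexus list Clic6 and Tmem72. Over all tested genes 0.381% passed in edgeR. Erythroid markers, led by Hba-a1, had a median of -0.36 over 5 tested genes, and ependymal markers a median of -0.64 over 5. Meningeal and mural markers had a median of 0.0057 and those of cortical neurons of 0.090. No gene of these lists was at 0 in all libraries. The part of any of these lists in the values of the cell cycle genes was not tested beyond the covariates named. Of those covariates, the striatal and choroid plexus ones cannot be told apart from genotype.

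Over the 10 libraries the cell cycle genes covaried weakly. Across libraries, Pearson's r of log2 CPM had a median of 0.11 over the 120 pairs within replication genes, 0.080 over the 276 pairs within mitotic genes and 0.087 over the 384 pairs between the classes, against -0.0005 over all pairs of tested genes. These pairs share the same 10 libraries, their depths and their scaling. An r above 0.7 was found for 2.50%, 3.99% and 3.12% of the pairs, against 1.56% over all tested genes. An r under -0.7 was found for 1 of 120, 7 of 276 and 2 of 384 pairs, and for 1766538 of the 119931328 pairs of all tested genes. After the genotype means were taken out, the medians were 0.084, 0.098 and 0.068. The shares above 0.7 were then 3.33%, 3.26% and 3.39%, against 2.19% over all tested genes. Pairs with the highest values did not follow the classes: Cenpf and Ccne1 had r = 0.95, Tpx2 and Mcm2 0.87, and Cdt1 and Mcm2 0.84. The lowest were -0.90 for Birc5 and Mcm4 and -0.90 for Kif20a and Plk1.

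In a family of 12 relations, no r passed the adjustment. Mki67 and Top2a had r = 0.75 (permutation p = 0.0110, Benjamini-Hochberg adjusted 0.132) and rho = 0.55 (permutation p = 0.105, adjusted 0.491) over 10 libraries. Without knockout replicates 1 and 3, the libraries farthest from the median of Mki67, r was 0.41. It was 0.74 without replicate 1 alone, 0.55 without replicate 3 alone, and 0.71 within genotypes. Other relations of Mki67 also moved when both libraries were left out: from 0.55 to 0.14 with Cenpf, from -0.017 to -0.41 with Cdk1, from -0.0059 to -0.045 with Mcm5, from 0.28 to -0.24 with Mcm6 and from 0.42 to 0.57 with Pcna. Mcm5 and Mcm6, subunits of one ring, had r = 0.092, and 0.57 without wild-type replicates 5 and 6, the libraries farthest from the median of Mcm5. Against markers of possible sources, Mki67 had r = 0.077 with Pdgfra, -0.61 with Aldh1l1 (permutation p = 0.0627, adjusted 0.352), -0.53 with Cx3cr1, -0.45 with Cldn5 and -0.26 with Dlx2. Without knockout replicates 1 and 3 these were 0.12, -0.70, -0.13, -0.41 and -0.50.

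**Figure D5:**
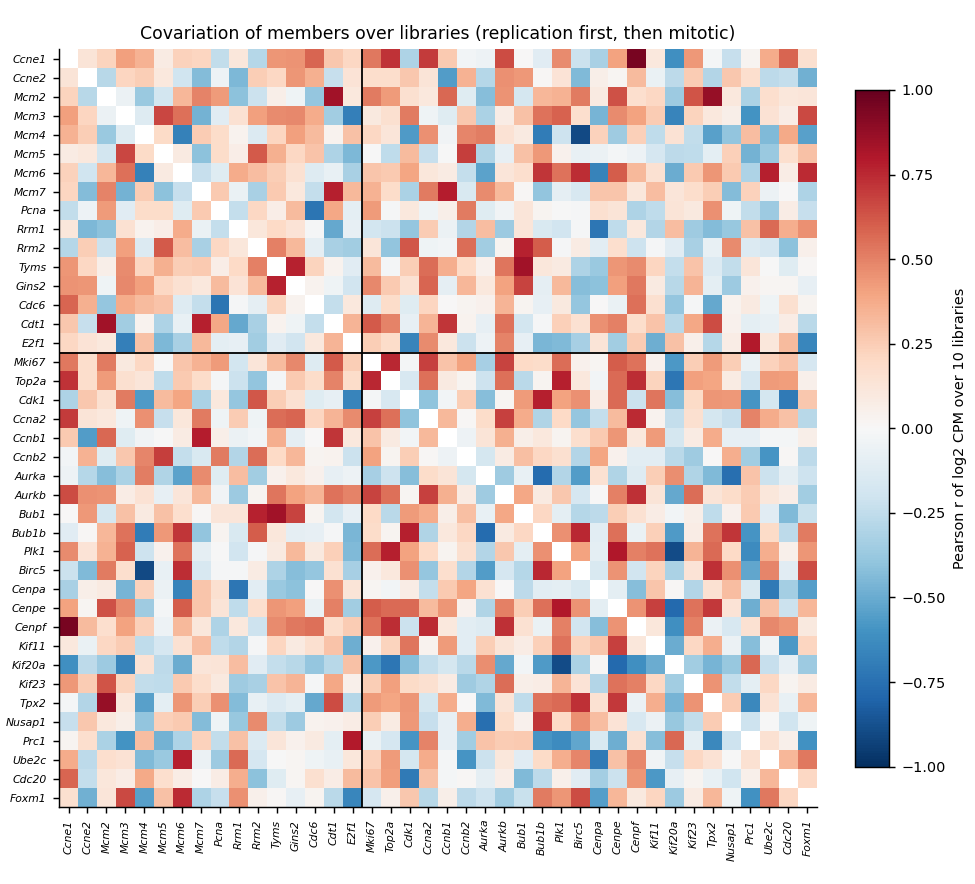
Pearson's r of log2 CPM over the 10 libraries for every pair of the 40 genes, ordered by class, on a colour scale from -1 to 1. Neither class forms a block of high values, and the highest cell joins Cenpf and Ccne1, at 0.95.

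Class means, each over 16 or 24 genes, were also compared. The mean log2 CPM of replication genes and that of mitotic genes had r = 0.56 and rho = 0.67 over 10 libraries, 0.44 within genotypes, and between 0.27 and 0.71 when single libraries were left out. As a description with no test, the replication mean had r = 0.77 with striatal markers, 0.74 with erythroid, 0.69 with choroid plexus, 0.58 with neurogenic, 0.38 with oligodendrocyte progenitor, -0.29 with endothelial, -0.68 with astrocyte and -0.75 with microglia markers. Within genotypes these were 0.72, 0.62, 0.54, 0.41, 0.43, -0.15, -0.55 and -0.69 in the same order. When single libraries were left out, the neurogenic value ran from 0.18 to 0.83 and the oligodendrocyte progenitor value from 0.052 to 0.64. For the mitotic mean the values were 0.61 with erythroid, 0.57 with neurogenic, 0.44 with striatal, 0.27 with choroid plexus, 0.21 with oligodendrocyte progenitor, -0.28 with microglia, -0.32 with astrocyte and -0.54 with endothelial markers. Within genotypes they were 0.51, 0.45, 0.20, -0.12, 0.21, -0.14, -0.12 and -0.48. With single libraries left out, the choroid plexus value ran from -0.16 to 0.49, the oligodendrocyte progenitor value from -0.19 to 0.52, the microglia value from -0.62 to 0.13 and the neurogenic value from 0.20 to 0.68. All of these means come from the same libraries, so depth and scaling are shared between the measures.

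Among 14497 other genes with a mean of at least 1 CPM, those most like the replication mean over the 10 libraries were Phtf1os (r = 0.96), Synpo2, Aldh1l2, Pard6b, Dlx1, Bcl11b, Pih1d1, Ccdc187 and 4930570G19Rik (r = 0.89). Of these, Dlx1 (r = 0.92) is on the neurogenic list and Bcl11b (r = 0.91) on the cortical neuron list. The others named are on none of the lists. The 10 most like the mitotic mean were Kctd8 (r = 0.94), Ttbk2, Mybl1, Rc3h2, Fam102b, Gna13, Neb, Ltbr, Cyp20a1 and Daam1 (r = 0.89), of which Mybl1 is a relative of B-MYB. None of these genes was in the lists of other replication, mitotic or G1 genes. Both sets are the highest of 14497 values over only 10 libraries, so their high r is in part a result of that selection. With the replication mean, other replication genes had a median r of 0.048 and other mitotic genes one of 0.26, against 0.0001 over all genes ranked. With the mitotic mean the medians were 0.26 and 0.28, against -0.0093.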

How the data were processed

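The authors deposited a table of whole-number read counts per gene and library with Entrez identifiers. The submitters' processing notes name HISAT2, featureCounts and the build mm39. The sources used here give no version, gene annotation, strand setting or rule for multimapping reads, so reads of overlapping or antisense genes cannot be told apart. The groups follow the genotype labels. Symbols came from a RefSeq table of GRCm38.p6, which matched 30648 of 30935 identifiers; all 40 members matched.

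Counts were filtered with filterByExpr, scaled with TMM and compared with the robust quasi-likelihood test in edgeR 4.0.16 (R 4.3.3), with genotype as the sole term, over 15488 genes. Two-sided p-values were adjusted by Benjamini and Hochberg's method, with 0.05 as threshold. The script was tested on simulated counts. Levels are CPM from TMM-scaled totals, and CPM per kilobase used the union of exons in GENCODE M21, an annotation of another build than the authors'. Correlations used log2 CPM with a prior count of 2, and 100000 permutations; exact tests used all 252 assignments. Within a genotype, the chi-square of any 2 libraries was 4.10 to 13.9 times its degrees of freedom, more than counting alone gives. Each library was treated as 1 replicate because the submitters describe the samples as independent. Promoters came from RefSeq's GRCm38.p6 table, which covered 32 of the 40 genes. For 29 of 34 promoters, the last 30 bases were found in an annotated transcript of that gene, and 0 in reverse. Of the 84 sets of values checked for outlying libraries, the closing section names 5.

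The members and gene lists were chosen with earlier results of these data known. Named are all members, from other cell cycle lists the genes past the test and the 2 with the smallest p, from cell type lists the genes past the test and the 3 with the highest CPM, and the 10 genes most like each class mean; a few genes that this rule selects are not reported here. Alternatives were other scalings, filters, tools, left-out libraries, a replicate block and covariates.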

Additional observations from a re-analysis of the deposited data

Results flagged for a closer look

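For each gene and genotype, and for the class sums, the highest and the lowest library were compared with the spread of the other libraries by Dixon's test. It singled out 5 of 84 groups, and chance gives about 1 in 20.

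Rrm1 was lowest in knockout replicate 6, at 22.0 CPM, where the other knockout libraries lay between 28.9 and 30.8 CPM. Aurkb was lowest in knockout replicate 3, at 1.44 CPM, where the others lay between 2.45 and 2.63 CPM. In wild type, Gins2 was highest in replicate 5, at 2.55 CPM against 1.63 to 1.89 CPM in the others. Ccna2 was highest in wild-type replicate 6, at 10.5 CPM against 8.39 to 8.97 CPM. Ccnb1 was highest in wild-type replicate 2, at 5.82 CPM against 4.46 to 4.73 CPM. The 5 values fall in 5 different libraries.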

How the results depend on the processing

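The count of members past the edgeR test was 0 in all 25 alternatives, including a threshold of 0.1, and the smallest adjusted p of a member in any fit was 0.336. Members at an unadjusted p under 0.05 numbered 0 to 2, and members below 0 numbered 21 to 29. The replication median ran from -0.11 (without knockout replicate 1) to -0.048 (without knockout replicate 3) over left-out libraries and from -0.079 to -0.0096 over other settings. The mitotic median ran from -0.088 (without wild-type replicate 5) to -0.016 (without knockout replicate 1), and from -0.072 to -0.013. Of 957 single-gene values, 0 passed the threshold, 95 had another sign than the reported value, 35 of them by more than 1 standard error, and 31 members changed sign in at least 1 setting. The r of Mki67 and Top2a ran from 0.55 (without knockout replicate 3) to 0.86 (without wild-type replicate 4), where it passed the adjustment. E2F words of 8 letters (TTTCCCGC, TTTGGCGC, TTTCGCGC or TTTGCCGC) were in 42.9% of replication and 5% of mitotic promoters. They were in 3.57% of promoters of tested genes and 2.26% of all promoters. Over all genes, 29 were higher and 30 lower, against 54 and 70 with DESeq2 and 75 and 96 without the filter. Left-out libraries gave 97 and 85 without knockout replicate 8 and 6 and 9 without wild-type replicate 2. They gave 9 and 8 without knockout replicate 3, and 5 and 7 without knockout replicates 3, 5 and 6. With sex as a covariate the counts were 14 and 14. Sex was inferred from Y-linked counts alone, with 1 male wild-type and 2 male knockout libraries and 1 library not clear-cut. Marker covariates gave 4 and 4 with neuroblast, 1 and 0 with striatal and 0 and 0 with choroid plexus markers. On mean log2 CPM, striatal and choroid plexus markers were lower in every knockout library, so these fits cannot tell them from genotype.

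With a replicate block, 0 members passed and the medians were -0.056 and -0.062, while 3 genes were called higher and 24 lower. The genotype difference in that fit rests on replicates 5 and 6 alone, so a count of 0 members there says little. Only replicates 5 and 6 occur in both genotypes, and their deviations from the genotype means had r = -0.030 and -0.057. Without values for unmatched pairs beside them, these cannot show whether samples of the same number share more than the number. The standard error of a member ran from 0.0702 for Pcna to 0.355 for Cdc6 on the log2 scale, the genes with the most and the fewest counts.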
